A study of Mus musculus with 6 samples.

Results

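Homeobox transcription factors that pattern the limb and the skeleton were compared between stem cell factor-expressing marrow cells and unselected marrow. The set holds 36 genes of 19938 measured, taken from a list of gene names that was drawn up with earlier results of these data known. Each was found as a row of the deposited table with that gene as its only platform symbol, and each had exactly 1 such row. Array RNA came from 2 kinds of samples, with 3 arrays each. Scf-GFP+ cells were double-sorted from the bone marrow of young adult mice heterozygous for a green fluorescent protein knocked into the gene for stem cell factor, Kitl. The cells sorted as whole bone marrow came from young adult wild-type mice. Both groups have a C57BL/6 background, and each array represents 5000 sorted cells whose RNA was amplified before hybridisation to Affymetrix Mouse Gene 1.0 ST arrays. Cell population, genotype and the second sort changed together, so they cannot be told apart. Sex also changed with them in part, as described below. Whole marrow averages over many blood cell types, and in such mixtures a lower share of one cell type and less RNA per cell cannot be told apart.

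Homeobox genes encode transcription factors that bind DNA through a homeodomain, often at letters around TAAT, and they give embryonic cells positional and lineage identity. In the early limb bud, Prrx1 marks the mesenchyme that builds bone, cartilage and connective tissue, and Meis1 and Meis2 act near the trunk. Dlx genes act in the outgrowing ridge and later in bone-forming cells. Members of the TALE class, which carry a 3-residue loop extension in the homeodomain, often bind as partners of Hox proteins, and Meis1 and Pbx genes have such roles in blood stem cells too.

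The groups matched their labels in their defining markers. All 6 perivascular stromal markers, Prrx1, Kitl, Cxcl12, Lepr, Pdgfra and Pdgfrb, were called higher in Scf-GFP+ cells, and all 6 pan-haematopoietic markers were called lower. Since the cells were sorted on Kitl expression, Kitl checks the labels only. Prrx1 is itself a member of the set, and its value here is the same as the result described below. A gene was called where limma's p, adjusted by Benjamini-Hochberg across the 19938 genes, was below 0.05 and the groups differed at least 2-fold. Scf-GFP+ replicate 1 stood apart in neutrophil genes, with a mean over 11 markers of 9.57 on the log2 scale against 5.70 and 5.88 in replicates 2 and 3 and 12.08 to 12.14 in whole marrow. Of these markers, Mpo (6.57, 6.20 and 6.33 in Scf-GFP+ replicates 1 to 3) and Elane (5.92, 5.73 and 5.52) differed little between the replicates. The mean over the 6 pan-haematopoietic markers was 5.86 and 5.84 in Scf-GFP+ replicates 2 and 3 and 6.79 in replicate 1. Values without that array are given for the genes called higher or lower and for some others. Scf-GFP+ replicates 1 and 2 also carried Xist at 11.50 and 11.81, while the other 4 arrays lay between 4.99 and 5.10. Xist is transcribed from the inactive X chromosome of females. The Y-linked gene Eif2s3y lay at 4.41 and 3.72 in those replicates and between 7.33 and 8.23 on the other 4 arrays. Female samples were thus seen only in the Scf-GFP+ group, so sex and group changed together in part. A fit with a term for sex is given below. Medians of the 6 arrays lay between 6.56 and 6.63 and first quartiles between 5.19 and 5.31. The values carry no detection call, and low ones do not show that a gene was silent.

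Of the 36 genes, 7 were called higher in Scf-GFP+ cells, 1 was called lower and 28 were not called. Over all genes tested, 9.01% were called higher and 7.89% lower, or 16.9% in either direction, against 19.4% and 2.8% of the members. By the adjusted p alone, 12 members were higher and 2 lower, and 13.8% of all genes were higher and 13.2% lower. The 7 were Prrx1, Dlx5, Irx3, Meis2, Meis3, Dlx6 and Shox2, and the gene called lower was Tgif1. The median log2 difference, positive where Scf-GFP+ cells are higher, was 0.30 over the members and -0.075 over all genes. The difference was above 0 for 26 members, or 72.2%, and for 40.5% of all genes. All 3 Scf-GFP+ arrays lay above all whole marrow arrays for 16 members (44.4%, against 19.0% of all genes) and below them for 5 (13.9%, against 26.4%). Without Scf-GFP+ replicate 1, 6 members were called higher and 0 lower, against 1698 higher and 1498 lower of all 19938 genes.

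Start regions are shown for 5 of the 7 genes called higher (not Dlx5 and Dlx6), and for Prrx2 as the uncalled relative of Prrx1. None is shown for Tgif1, which has several listed starts. They are RefSeq sequences of build GRCm38.p6 from 250 bases before to 50 bases after a start listed for the gene, written 5′ to 3′ on the gene's strand, with capitals at motif matches. A gene may have other starts.
Prrx1, chr1:163313601-163313900, minus strand: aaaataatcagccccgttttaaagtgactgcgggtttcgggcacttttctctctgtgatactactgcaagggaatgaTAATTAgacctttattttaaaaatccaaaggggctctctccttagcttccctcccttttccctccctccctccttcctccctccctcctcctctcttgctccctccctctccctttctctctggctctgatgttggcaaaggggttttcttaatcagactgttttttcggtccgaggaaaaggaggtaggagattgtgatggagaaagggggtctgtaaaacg
Prrx2, chr2:30845117-30845416, plus strand: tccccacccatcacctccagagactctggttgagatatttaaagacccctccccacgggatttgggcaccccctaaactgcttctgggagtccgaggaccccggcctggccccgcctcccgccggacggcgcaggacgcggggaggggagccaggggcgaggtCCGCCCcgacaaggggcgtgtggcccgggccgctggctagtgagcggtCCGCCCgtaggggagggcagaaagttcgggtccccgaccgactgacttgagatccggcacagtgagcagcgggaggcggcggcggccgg
Shox2, chr3:66981722-66982021, minus strand: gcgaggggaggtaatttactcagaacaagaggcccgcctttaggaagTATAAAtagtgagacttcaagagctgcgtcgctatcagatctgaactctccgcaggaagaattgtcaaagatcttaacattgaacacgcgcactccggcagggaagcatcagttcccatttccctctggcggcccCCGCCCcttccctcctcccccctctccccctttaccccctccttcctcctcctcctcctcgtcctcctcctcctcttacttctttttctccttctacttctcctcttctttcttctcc
Irx3, chr8:91801605-91801904, minus strand: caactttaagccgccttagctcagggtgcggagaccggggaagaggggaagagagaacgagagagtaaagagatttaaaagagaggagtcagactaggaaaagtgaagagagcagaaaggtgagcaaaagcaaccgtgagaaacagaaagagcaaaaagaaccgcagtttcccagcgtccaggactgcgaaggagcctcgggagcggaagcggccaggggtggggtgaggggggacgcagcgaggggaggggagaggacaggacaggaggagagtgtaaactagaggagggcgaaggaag
Meis2, chr2:116064570-116064869, minus strand: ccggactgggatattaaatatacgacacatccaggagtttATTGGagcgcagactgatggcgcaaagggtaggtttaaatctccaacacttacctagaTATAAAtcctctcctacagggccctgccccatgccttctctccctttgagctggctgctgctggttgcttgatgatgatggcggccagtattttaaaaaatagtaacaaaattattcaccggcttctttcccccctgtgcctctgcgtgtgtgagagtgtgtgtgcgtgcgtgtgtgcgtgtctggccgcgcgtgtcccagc
Meis3, chr7:16175145-16175444, plus strand: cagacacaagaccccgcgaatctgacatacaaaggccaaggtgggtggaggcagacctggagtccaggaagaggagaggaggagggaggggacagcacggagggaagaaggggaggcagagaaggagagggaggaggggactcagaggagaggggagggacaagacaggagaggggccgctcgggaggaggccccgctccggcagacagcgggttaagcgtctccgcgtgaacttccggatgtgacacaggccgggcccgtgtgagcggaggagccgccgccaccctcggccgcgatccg

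Both strands were searched for TAATTA (a homeodomain core that is its own reverse complement), TGACAG (a Meis, Pknox and Tgif core), TGATTGAT (a Pbx site), CCAAT (bound by NF-Y), TATAAA (the TATA box) and GGGCGG (an Sp1 site). A match on the other strand appears in its complement, so capitals may read CCGCCC or ATTGG. No matches overlap in the sequences shown. Prrx1 holds TAATTA 173 bases before its start, a motif found in 5.3% of all 32851 regions in the table. Prrx2 holds 2 matches to GGGCGG, 87 and 39 bases before its start, and 35.7% of all regions hold that motif. Meis2 holds CCAAT on the reverse strand 210 bases before the start and TATAAA 152 bases before it, and Shox2 holds TATAAA and GGGCGG 203 and 68 bases before it. Irx3 and Meis3 hold none of the 6 in these windows. Over the 30 regions of the 24 members with an entry, GGGCGG was found in 60.0%, TGACAG in 20.0% against 19.2% of all regions, and TAATTA in 6.7%. The median share of G and C was 63.3% in these regions and 52.7% in all. The Prrx1 region had 47.7% and that of Prrx2 70.3%. These are matches of letters and not known binding sites.

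**Figure D1:**
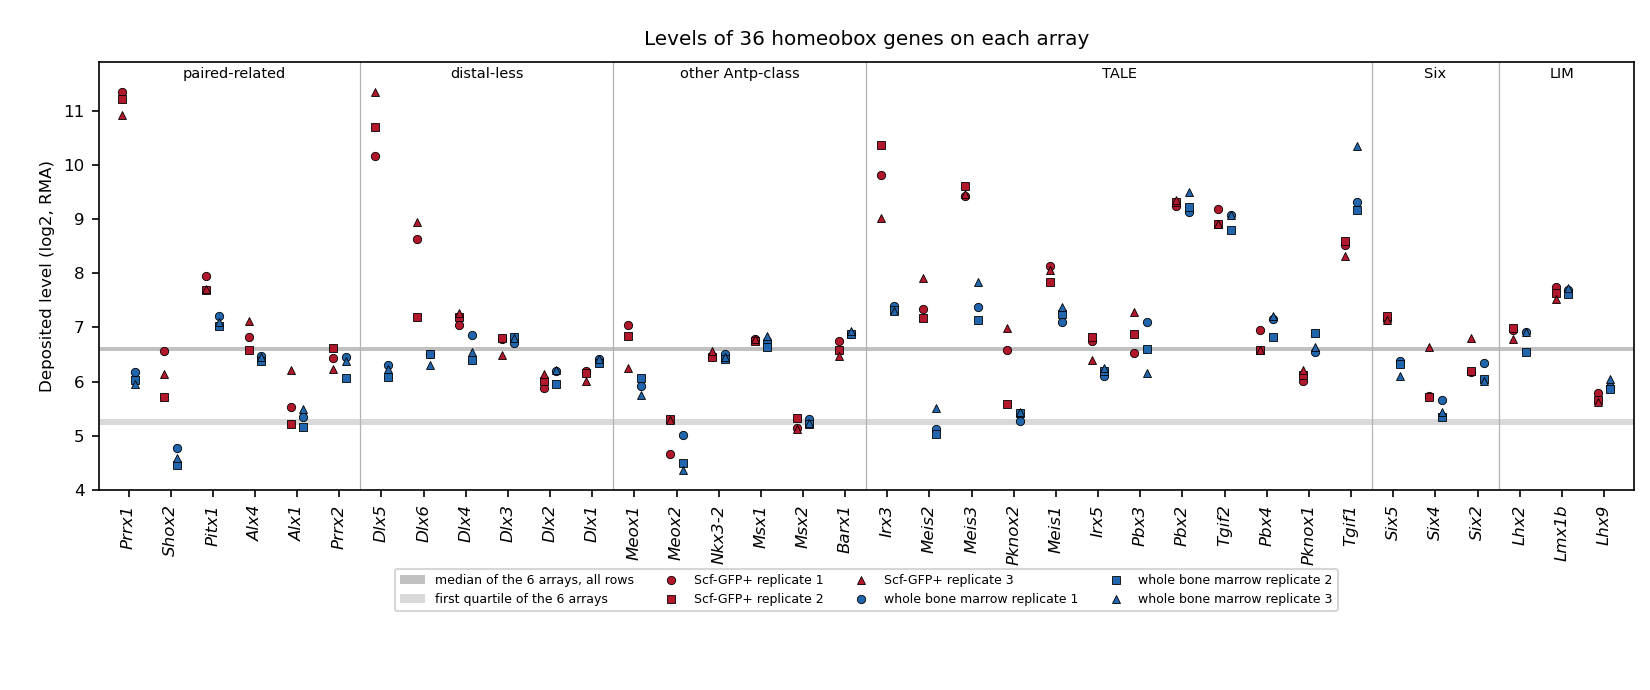
Deposited log2 level (vertical axis) of each of the 36 genes on each array, by homeodomain class, with Scf-GFP+ arrays in red and whole marrow arrays in blue, and marker shapes for replicates 1 to 3. Prrx1 and Dlx5 lie at or above 10.16 on the Scf-GFP+ arrays and at or below 6.31 on the whole marrow arrays, while Msx1 stays between 6.64 and 6.84 on all 6, near the median of the arrays (darker grey band).

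Among the 6 paired-related genes, 2 were called higher. Prrx1 measured 11.34, 11.23 and 10.92 on the log2 scale in Scf-GFP+ replicates 1 to 3 and 6.19, 6.02 and 5.96 in whole marrow replicates 1 to 3. The lowest Scf-GFP+ array lay 4.74 above the highest whole marrow array. Prrx1 was 34.5-fold higher (5.11 ± 0.14 SE on the log2 scale, 3 arrays in each group, limma adjusted p = 3.00e-06), ranking 81 of 19938 genes by that difference. With no detection call, this fold compares measured values, and the whole marrow mean of 6.06 lay below every array's median. Prrx1 overlaps the lncRNA genes LOC108167740 and Gm20471 in RefSeq, and their part in its row was not tested. Shox2, which drives growth of the upper limb segment and patterns the cardiac pacemaker, measured 6.56, 5.72 and 6.14 in Scf-GFP+ cells and 4.77, 4.45 and 4.59 in whole marrow. It was higher by 1.54 ± 0.22 (limma adjusted p = 0.00264), with no overlap between the groups and with whole marrow values below the first quartile of the arrays. Shox2 overlaps another gene in RefSeq, Rsrc1, whose own row was also called higher (8.91, 10.33 and 9.81 against 8.01 to 8.19). The part of Rsrc1 in the Shox2 row was not tested.

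The other 4 paired-related genes were not called. Prrx2, which acts beside Prrx1 in limb and face mesenchyme, measured 6.44, 6.62 and 6.23 in Scf-GFP+ cells and 6.45, 6.07 and 6.37 in whole marrow, with overlapping groups. Its difference of 0.13 had a 95% interval of -0.24 to 0.50, which lies wholly below the interval of Prrx1, 4.76 to 5.45. Pitx1, a determinant of hindlimb identity, measured 7.94, 7.69 and 7.71 against 7.22, 7.02 and 7.10. Its groups did not overlap and its difference of 0.67 had a limma adjusted p of 0.00697, but it stayed under 2-fold. Alx4, which acts in limb and skull patterning, differed by 0.41 with no overlap (limma adjusted p = 0.104). Alx1, a factor of face and skull mesenchyme, differed by 0.33 (95% interval -0.29 to 0.94), with 6.22 in Scf-GFP+ replicate 3 and at most 5.52 on the other 5 arrays.

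Among the 6 distal-less genes, Dlx5 and Dlx6 were called higher. The pair lies side by side on chromosome 6 with 0 RefSeq genes between them. Dlx5, a factor of osteoblast differentiation, measured 10.16, 10.70 and 11.34 in Scf-GFP+ cells and 6.31, 6.08 and 6.22 in whole marrow. It was 23.1-fold higher (4.53 ± 0.28 SE, limma adjusted p = 6.29e-05), and the groups were 3.85 apart at their closest. Dlx6, which acts with Dlx5 in jaw and limb, measured 8.63, 7.20 and 8.94 against 6.31 to 6.51. Scf-GFP+ replicate 2 was the array nearest to whole marrow, although all 3 Scf-GFP+ arrays lay above it. Dlx6 was 3.52-fold higher (1.82 ± 0.43 SE, limma adjusted p = 0.0216). The call of Dlx6 was not stable when 1 array was left out, and its size changed most with the Scf-GFP+ arrays. Without Scf-GFP+ replicate 2 it was higher by 2.35 (limma adjusted p = 0.000308), and it was not called at 1.63 without replicate 1 (limma adjusted p = 0.0692) or at 1.47 without replicate 3 (limma adjusted p = 0.0505). Leaving out whole marrow replicate 1, 2 or 3 also ended the call, at differences of 1.85, 1.85 and 1.75 (limma adjusted p of 0.0618, 0.0588 and 0.0731). Over all alternatives the adjusted p of Dlx6 ran from 0.000308 to 0.0731. Dlx6 overlaps the lncRNA genes Dlx6os1 and Dlx6os2 in RefSeq, and their part in this row was not tested.

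The other pairs of this family were not called. Dlx4 measured 7.05, 7.20 and 7.27 against 6.87, 6.39 and 6.54 and differed by 0.57 (limma adjusted p = 0.0320, under 2-fold), while its neighbour on chromosome 11, Dlx3, known for its role in skin, hair and teeth, differed by -0.09 (95% interval -0.39 to 0.20). Dlx1 and Dlx2, neighbours on chromosome 2 that act in forebrain and jaw, differed by -0.27 and -0.11, with limma adjusted p of 0.109 and 0.558. The Dlx1 groups did not overlap, with means of 6.12 and 6.39 and all Scf-GFP+ arrays below whole marrow.

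**Figure D2:**
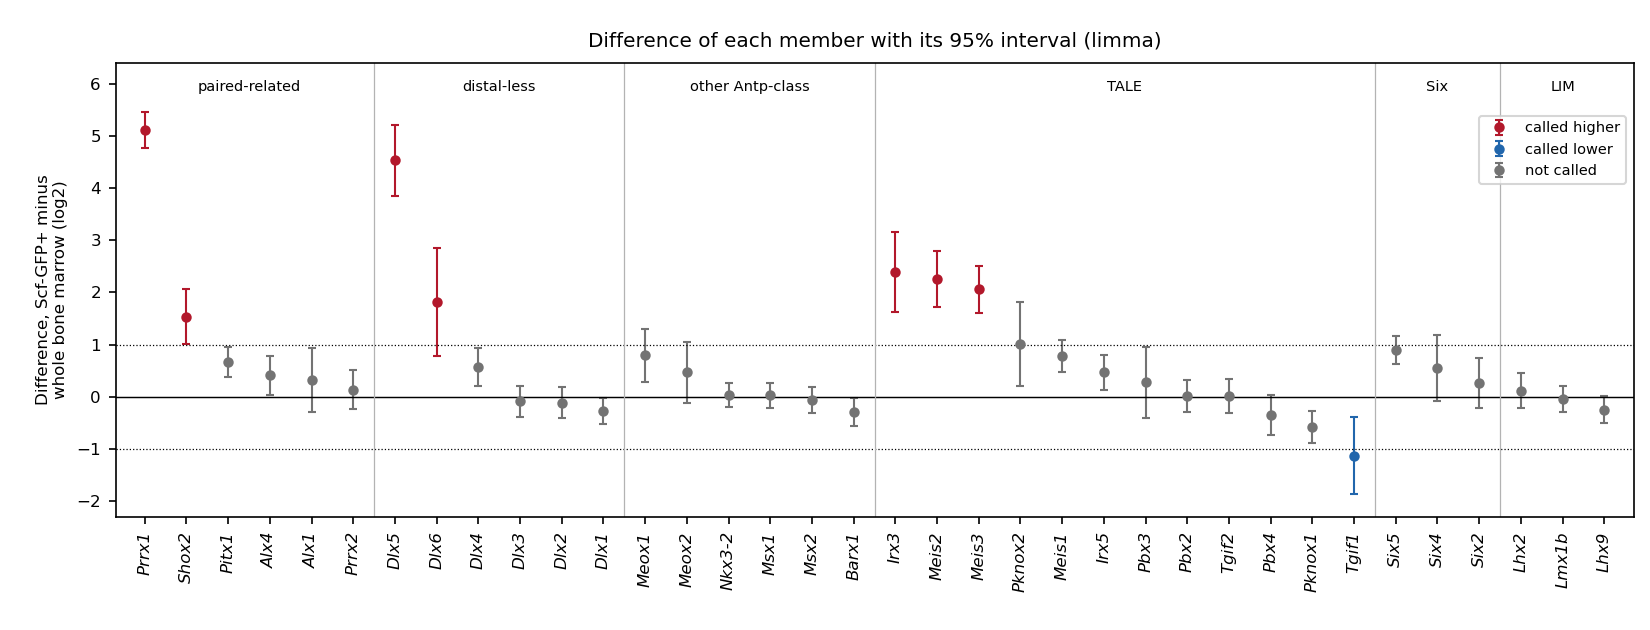
Log2 difference of each of the 36 genes between Scf-GFP+ cells and whole bone marrow (vertical axis, positive where Scf-GFP+ is higher), with limma's 95% interval, by homeodomain class. Dotted lines mark 2-fold in each direction. The 7 genes called higher reach from 1.54 to 5.11 and Tgif1, called lower, lies at -1.13.

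Of 12 TALE genes, 3 were called higher and 1 lower. Irx3, an Iroquois factor that acts with Irx5 in limb bud patterning, measured 9.82, 10.37 and 9.01 in Scf-GFP+ cells and 7.40, 7.32 and 7.31 in whole marrow. It was 5.25-fold higher (2.39 ± 0.32 SE, limma adjusted p = 0.00193), with 1.61 between the nearest arrays of the groups and a spread of 1.36 among the Scf-GFP+ arrays against 0.09 in whole marrow. Irx5 lies in the same cluster on chromosome 8, with 0 protein-coding genes between the pair in RefSeq. Irx5 measured 6.75, 6.83 and 6.39 against 6.11 to 6.25. Its difference of 0.47 missed the threshold (limma adjusted p = 0.0512) and its interval, 0.13 to 0.81, lay wholly below that of Irx3. In both genes Scf-GFP+ replicate 2 was the highest of the group and replicate 3 the lowest.

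The 3 Meis genes encode partners of Pbx and Hox proteins, and Meis1 and Meis2 mark the part of the limb bud near the trunk. Meis2 measured 7.34, 7.17 and 7.91 in Scf-GFP+ cells and 5.13, 5.03 and 5.50 in whole marrow. It was 4.77-fold higher (2.25 ± 0.23 SE, limma adjusted p = 0.000517). Meis3 measured 9.43, 9.61 and 9.47 against 7.37, 7.13 and 7.83 and was 4.16-fold higher (2.06 ± 0.19, limma adjusted p = 0.000342). For both genes the nearest arrays of the groups were over 1.5 apart on the log2 scale, at 1.67 for Meis2 and 1.59 for Meis3. Meis1, a regulator of blood stem cells and megakaryocytes, measured 8.14, 7.85 and 8.06 against 7.10, 7.26 and 7.37. It differed by 0.77 (95% interval 0.46 to 1.08, limma adjusted p = 0.00510), which is 1.71-fold and under the threshold of size, with no overlap between the groups, and by 0.71 without Scf-GFP+ replicate 1. In RefSeq, Meis2 overlaps the lncRNA gene G630016G05Rik and Meis1 overlaps Gm16141, and the part of these in the 2 rows was not tested.

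Neither the 3 Pbx genes, whose proteins pair with Meis proteins, nor the 2 Pknox genes were called. Pbx2 measured 9.13 to 9.50 in whole marrow and 9.25 to 9.34 in Scf-GFP+ cells, a difference of 0.01 (95% interval -0.29 to 0.31). Pbx3 and Pbx4 differed by 0.28 and -0.36, with limma adjusted p of 0.524 and 0.161. Pknox1 and Pknox2 encode the Prep proteins, which also bind Pbx. Pknox1 measured 6.00, 6.13 and 6.21 in Scf-GFP+ cells and 6.55, 6.89 and 6.63 in whole marrow, lower on every Scf-GFP+ array (-0.58, limma adjusted p = 0.0172, under 2-fold). Pknox2 measured 6.58, 5.59 and 6.99 against 5.28, 5.43 and 5.43. Its difference of 1.01 did not pass (limma adjusted p = 0.0729), and without Scf-GFP+ replicate 2 it was called higher at 1.41 (limma adjusted p = 0.00253, from 0.00253 to 0.180 over the alternatives).

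Tgif1 and Tgif2 encode repressors that restrain TGF-beta and retinoid signalling. Tgif1 measured 8.52, 8.59 and 8.31 in Scf-GFP+ cells and 9.31, 9.17 and 10.34 in whole marrow, with whole marrow replicate 3 more than 1 above the other arrays of its group. It was called lower by -1.13 ± 0.31 (limma adjusted p = 0.0361), with no overlap between the groups. The call was lost when Scf-GFP+ replicate 1, 2 or 3 was left out, at limma adjusted p of 0.0846, 0.0742 and 0.0974, or without whole marrow replicate 1 (limma adjusted p = 0.0549). Without whole marrow replicate 3 the difference shrank to -0.77, under 2-fold (limma adjusted p = 0.0153). With the replicate number as a block the limma adjusted p was 0.0632, and over all alternatives it ran from 0.0153 to 0.131. Tgif2 measured 9.18, 8.91 and 8.90 against 9.07, 8.81 and 9.08, a difference of 0.01 (95% interval -0.31 to 0.34).

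None of the other 12 members was called by limma, and at an unadjusted p below 0.05, 2 were higher and 1 was lower. No share of all genes was counted at that unadjusted threshold. Six5, whose family works with Eya coactivators, measured 7.13, 7.21 and 7.15 in Scf-GFP+ cells and 6.38, 6.32 and 6.10 in whole marrow. Its groups were 0.75 apart, and its difference of 0.89 passed the adjusted p alone (limma adjusted p = 0.00155, 1.86-fold). Six5 overlaps the protein-coding gene Bhmg1 in RefSeq, and the part of Bhmg1 was not tested. Several other members not called also overlap RefSeq genes. Six4 measured 5.74, 5.72 and 6.64 against 5.65, 5.34 and 5.44, with Scf-GFP+ replicate 3 well above the other 5 arrays (0.55, limma adjusted p = 0.181). Six4 overlaps Mnat1 in RefSeq, whose row differed by 0.83 without a call, and the part of Mnat1 was not tested. Six2, a factor of kidney and skull base progenitors, showed the same array highest, at 6.81 against 6.18 in replicate 1 (0.26, limma adjusted p = 0.392).

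Meox1, which acts in somites, measured 7.04, 6.83 and 6.26 against 5.93, 6.07 and 5.76, a difference of 0.79 with no overlap (limma adjusted p = 0.0358, under 2-fold). Without Scf-GFP+ replicate 3 it was called higher at 1.02 (limma adjusted p = 0.00549, from 0.00549 to 0.325 over the alternatives). With Scf-GFP+ replicate 1 left out, Meox1 differed by 0.63 (limma adjusted p = 0.0927). Meox2, of somites and limb muscle, differed by 0.47 (limma adjusted p = 0.213), with both group means below the first quartile of every array. The BMP-responsive genes Msx1 and Msx2 differed by 0.02 (95% interval -0.22 to 0.27) and -0.06 (95% interval -0.32 to 0.19). Msx1 lay between 6.64 and 6.84 on all 6 arrays and Msx2 between 5.12 and 5.33. Nkx3-2, a factor of cartilage precursors, differed by 0.03 (95% interval -0.20 to 0.26), and Barx1, of jaw and stomach mesenchyme, by -0.30 with no overlap (limma adjusted p = 0.102). Among the LIM genes, Lmx1b, the dorsal limb determinant, differed by -0.04. Lhx2 and Lhx9, which act in limb outgrowth, differed by 0.11 and -0.25, with limma adjusted p of 0.604 and 0.148. For 22 of the 28 members not called, the 95% interval lay wholly inside 2-fold in both directions. The exceptions were Meis1, Pknox2, Meox1, Meox2, Six4 and Six5.

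**Figure D3:**
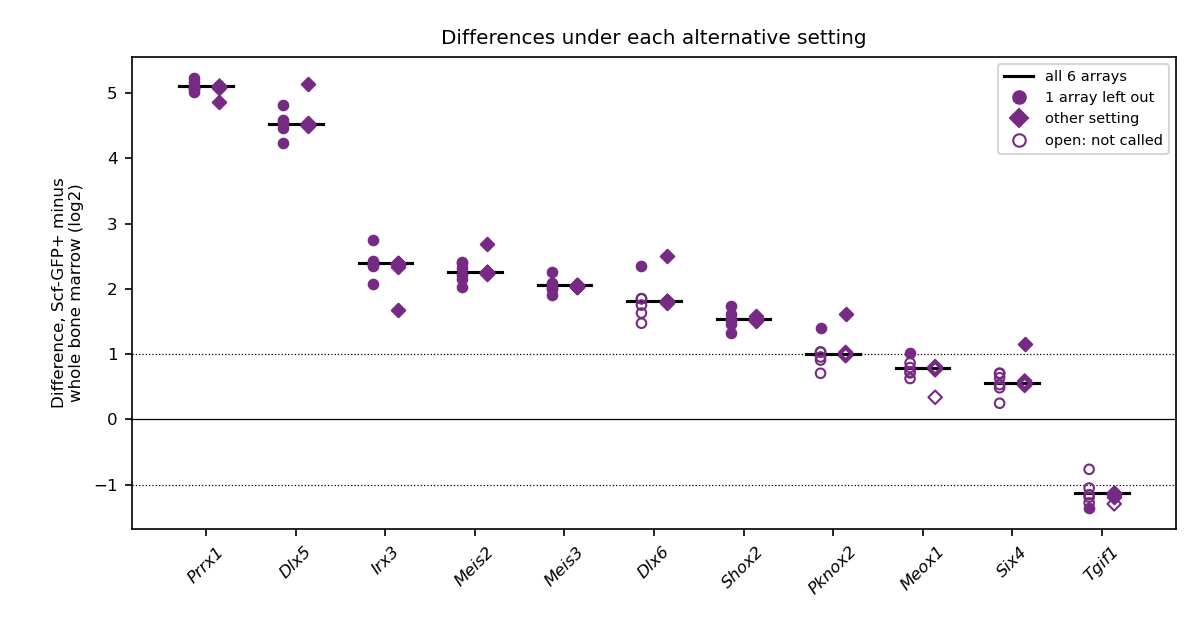
Log2 difference between Scf-GFP+ cells and whole bone marrow (vertical axis) of the 8 called genes and of 3 others that were called under at least 1 alternative that keeps the 2-fold minimum. Bars give all 6 arrays, circles each fit with 1 array left out, diamonds the other settings, and open symbols a setting in which the gene was not called. Prrx1, Dlx5, Irx3, Meis2, Meis3 and Shox2 have no open symbol, while Dlx6 and Tgif1 have 5 and 7. Shox2, Pknox2 and Six4 have no value without the dimmest 30% of genes.

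The Scf-GFP+ arrays did not share one order over the genes called higher. Replicate 1 was the highest Scf-GFP+ array for 2 of the 7, replicate 2 for 2 and replicate 3 for 3. Dlx6, Shox2 and Meis2 were lowest in replicate 2, while Irx3 was highest there. The members' median SD over 3 arrays was 0.166 for Scf-GFP+ cells and 0.148 for whole marrow, against 0.165 and 0.162 for all genes. Dlx6, Pknox2, Irx3 and Dlx5 had SDs of 0.93, 0.72, 0.68 and 0.59 over the Scf-GFP+ arrays and of at most 0.12 over the whole marrow arrays. Without Scf-GFP+ replicate 1, the array with neutrophil transcripts, Prrx1 was higher by 5.02, Dlx5 by 4.82, Irx3 by 2.35, Meis2 by 2.32, Meis3 by 2.09 and Shox2 by 1.32, all still called.

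Other homeobox genes were set beside the members. Of 40 measured genes of the same or neighbouring families, such as Irx, Lhx, Nkx, Emx and Otx genes, 0 were called higher by limma, 1 was called lower and 39 were not called, and their median difference was -0.14. At an unadjusted p below 0.05, 0 were higher and 7 lower. The share of all genes at that unadjusted threshold was not counted, so no lean is read from these counts. By the adjusted p alone, 13.8% of all genes were higher and 13.2% lower. The gene called lower was Hhex, a regulator of blood and liver progenitors, which measured 7.39, 6.48 and 6.07 in Scf-GFP+ cells and 10.22, 9.86 and 10.15 in whole marrow (-3.43 ± 0.33 SE, limma adjusted p = 0.000417). Without Scf-GFP+ replicate 1, the highest of its group, Hhex differed by -3.80. Hopx, an atypical homeodomain protein, differed by -0.98 and stayed under 2-fold (limma adjusted p = 0.00724), but it was called lower without Scf-GFP+ replicate 2 and without whole marrow replicate 2 or 3.

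Of 20 measured transcription factors that work beside these genes in the skeleton, 7 were called higher and 1 lower. Tcf7l2, a Wnt effector, was higher by 3.49 ± 0.12 (limma adjusted p = 6.01e-06) and Sp7, which commits cells to the osteoblast fate, by 3.14 ± 0.17. Gli3, the hedgehog repressor that patterns the digits, was higher by 2.40 and Zfp521 by 2.26. Runx1, shared by blood and skeletal progenitors, was higher by 2.16, and Twist1, a mesenchymal factor, by 1.91. Tbx15, of limb and skin mesenchyme, was higher by 1.24 (limma adjusted p = 0.0212) and lost the call when whole marrow replicate 1, 2 or 3 was left out, at limma adjusted p of 0.0519, 0.0686 and 0.0660, and without Scf-GFP+ replicate 3 (0.90, under 2-fold). Sox6, of cartilage and red cells, was lower by -1.75 (limma adjusted p = 0.0165) and not called without whole marrow replicate 3 (limma adjusted p = 0.0556, from 0.00298 to 0.118 over the alternatives). Sox9, the cartilage regulator, had means of 6.98 and 6.90 with overlapping groups, and 5 of 6 chondrocyte markers were not called, Sox9 among them.

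Of 16 measured signals and genes known to lie upstream or downstream of the members, 7 were called higher and 0 lower by limma. At an unadjusted p below 0.05, 8 were higher and 1 lower, with no share of all genes counted at that threshold. Bmp4, a ligand that switches on Msx and Dlx genes in embryonic tissue, was higher by 5.57 ± 0.11 and Bmp2 by 2.94 ± 0.19, while Msx1 and Msx2 were not called. Tnc, a matrix protein known as a Prrx1 target, was higher by 6.24 ± 0.16. The bone matrix gene Ibsp, known as a Dlx5 target, was higher by 7.05 ± 0.18 and Alpl, an early osteoblast enzyme, by 3.45 ± 0.16. Igfbp5 and Sfrp4 were higher by 6.75 and 6.33. The limma adjusted p of these 7 genes was at most 7.14e-05. Shh and Fgf8, the organising signals of the limb bud, differed by -0.10 and -0.10 and were not called. Col1a1 and Fgf10 of the same list differed by 0.28 and -0.35 and were not called either (limma adjusted p of 0.0813 and 0.0925). These are differences between cell populations in adult marrow, and no link from a factor to a target was tested. Of 5 measured markers of mature osteoblasts and osteocytes, 4 were called higher, namely Dmp1, Phex and the already counted Ibsp and Sp7. Of 7 endothelial markers, 3 were called higher and 1 lower. The part of these cell types in the members' differences was not tested.

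**Figure D4:**
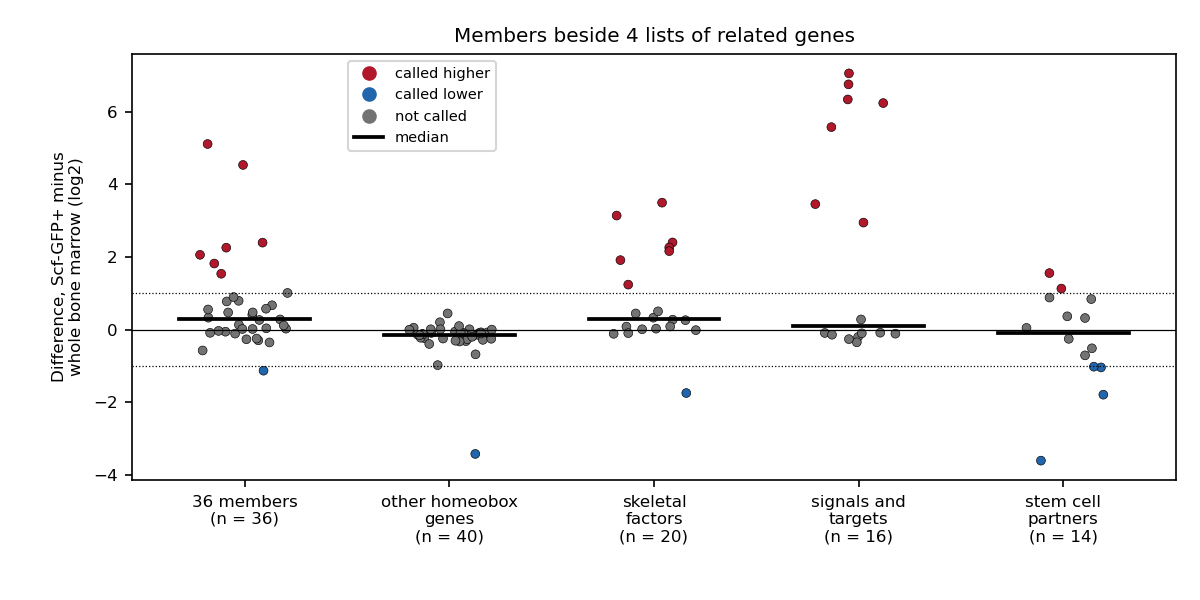
Log2 difference between Scf-GFP+ cells and whole bone marrow (vertical axis) of every measured gene in 5 lists, with 1 point per gene, bars at the medians and dotted lines at 2-fold. The 36 members and the skeletal factors have medians of 0.30 each, the other homeobox genes one of -0.14, with 0 of its 40 genes called higher. Hoxa9 and Hoxa10, also homeobox genes, stand among the stem cell partners. The lists were chosen with results of these data known, so their counts are descriptions.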

How the data were processed

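RNA from 3 Scf-GFP+ and 3 whole bone marrow samples was measured on Affymetrix arrays. The authors deposited log2 values per transcript cluster, and RMA, affy and limma are listed, without versions or roles, in the submitters' processing notes. RMA makes the arrays' distributions alike, so shifts of all genes together are not seen. The annotation build is not given in the sources used here.

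Of 28940 rows, 21789 had 1 gene symbol, 1621 several and 5530 none. Symbols were updated through Entrez identifiers with RefSeq (GRCm38.p6), and 91 identifiers were not found there. The row with the highest mean stood for a gene, which left 19938 genes. Groups were compared with limma 3.58.1 (lmFit, eBayes) in R 4.3.3, without covariates, and the fit was tested on simulated data. Intervals are limma's at 95%. No separate animals are named for the aliquots. Scf-GFP+ replicates 1 and 2 differed from replicate 3 in Xist and the Y-linked Eif2s3y, so these 3 did not all come from the same animals. Whether the other arrays did is not known. Beyond that, p-values reflect only how these samples vary, which may be technical. Members and lists were chosen with earlier results of these data known, and no set test was run. All 36 members are described; list genes named are the called ones plus those needed to describe a list. Alternatives left out each array, blocked on replicate number, averaged rows, removed dim genes, renormalized, recentred, changed the variance prior, added a sex term or dropped the fold minimum.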

Additional observations from a re-analysis of the deposited data

How the results depend on the processing

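Of 461 values of single members under the alternatives, 424 kept their direction and side of the threshold, 12 lost the call, 4 gained it and 21 changed sign. Prrx1, Dlx5, Irx3, Meis2, Meis3 and Shox2 were called in every setting that held them. Shox2 was among 7 members removed as dim. With 1 array left out, 6 to 8 members were called higher, 0 to 1 lower, and the median ran from 0.20 to 0.40. Over all 19938 genes, those fits called 1618 to 1822 higher and 1448 to 1560 lower. Same-numbered arrays did not deviate together (r of -0.063, -0.022 and 0.066). The replicate block gave 7 higher and 0 lower, since Tgif1 was lost (limma adjusted p = 0.0632), and changed no other member's call. Over all genes it called 1775 higher and 1563 lower. The sex term gave 9 higher, with Pknox2 at 1.61 and Six4 at 1.16 added, 0 lower, and a median of 0.47. Over all genes it called 1579 higher and 1288 lower. With the sex term the group contrast rests on Scf-GFP+ replicate 3 alone, and Irx3 moved to 1.67. With no fold minimum, 12 were higher and 2 lower.

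Sign changes were confined to differences near 0 in genes not called. With arrays centred on their medians, Msx1 was at -0.0083, Pbx2 at -0.0173 and Tgif2 at -0.0174. With new quantile normalization, Msx1 was at -0.0028, Msx2 at 0.0094, Pbx2 at -0.0122 and Tgif2 at -0.0146. With the sex term, Prrx2 was at -0.0701, Dlx2 at 0.0177, Lhx2 at -0.0075 and Tgif2 at -0.0819. With 1 array left out, the ranges were -0.0296 to 0.0697 for Msx1, -0.0625 to 0.1185 for Pbx2, -0.0771 to 0.0623 for Tgif2, -0.0118 to 0.174 for Lhx2, -0.0021 to 0.0565 for Nkx3-2, -0.0917 to 0.0155 for Lmx1b and -0.1458 to 0.0089 for Dlx3. Causes were not tested.

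In the other lists, with 1 array left out, the related homeobox genes had 1 to 2 called lower, the skeletal factors 6 to 7 higher and 0 to 1 lower, and the stem cell partners 2 to 3 higher and 2 to 4 lower. The related homeobox genes had 2 called lower with arrays centred on their medians and with the sex term, and 3 with no fold minimum. The skeletal factors had 0 lower with the sex term. With no detection call, folds against low values are less certain. This bears on Meox2 and on the whole marrow side of called genes such as Shox2, Meis2, Prrx1 and Dlx5, whose means there lay below every array's median.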

Other observations

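The list of stem cell partners, which holds partners of Meis1 and also markers of blood stem cells and megakaryocytes, was divided. Of 14 measured, 2 were higher and 4 lower in Scf-GFP+ cells by limma, and 8 were not called. The Hox genes Hoxa9, a known partner of Meis1, and Hoxa10 were higher by 1.55 ± 0.13 SE (limma adjusted p = 0.000255) and 1.13 ± 0.21 (limma adjusted p = 0.00791). Hoxa9 measured 8.78, 8.65 and 8.89 in Scf-GFP+ cells and 7.43, 7.11 and 7.12 in whole marrow, without overlap. Hoxa10 stayed under 2-fold without Scf-GFP+ replicate 2 (0.94), and with the sex term it was not called at 0.69 (limma adjusted p = 0.0603). Pf4, a platelet chemokine, was lower by -3.61, Flt3, a progenitor cytokine receptor, by -1.79, Gata2, a stem and mast cell factor, by -1.04 and Cd34 by -1.02. Cd34 fell under 2-fold without Scf-GFP+ replicate 2 (-0.93) or whole marrow replicate 1 (-0.89) or 2 (-0.97), and with the sex term it was at -0.84 (limma adjusted p = 0.106). Gata2 fell under 2-fold without whole marrow replicate 2 (-0.97) or 3 (-0.98). Kit, the receptor for stem cell factor, measured 7.26 to 7.76 in Scf-GFP+ cells and 7.45 to 7.95 in whole marrow and was not called (-0.26, limma adjusted p = 0.381). Meis1 itself was higher on all 3 Scf-GFP+ arrays by less than 2-fold.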
